A study of Mus musculus with 8 samples.

Results

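The Hox gene clusters were examined in maps of 5-hydroxymethylcytosine (5-hmC) from mouse pro-B cells. Members were the protein-coding genes whose symbol begins with Hoxa, Hoxb, Hoxc or Hoxd followed by a number in the GENCODE annotation of GRCm38, which gave 39 of 21938 coding genes. Each gene was taken with 2 kb on each side, here called its window. The 4 clusters were also taken whole, from the first to the last gene with 50 kb on each side. The stretch between the outermost genes is called the core and the 50-kb margins the flanks. The Hoxa core of 11 genes lies on the minus strand of chromosome 6. The Hoxb core of 10 genes lies at chr11:96194316-96368256, the Hoxc core of 9 genes at chr15:102921103-103036852 and the Hoxd core of 9 genes at chr2:74668310-74765142, all 3 on the plus strand.

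Pro-B cells were sorted as B220+CD43+IgM- from the bone marrow of C57BL/6 mice aged 4 to 6 weeks, and 5-hmC was mapped by hMeDIP-seq, which sequences the fragments of DNA that an antibody against 5-hmC precipitates. There were 2 libraries of HDAC7-deficient cells (Hdac7 fl/- with Mb1-Cre, a Cre driven from the Cd79a locus and so active in the B lineage) and 2 of Hdac7+/- littermates, called wild-type, which therefore carry 1 working copy of Hdac7. Whether these littermates carried Mb1-Cre is not given in the sources used here. The deposited lists give only where each peak starts and ends. Peak height and depth per library are thus unknown, no counting interval can be given, and the values below are numbers of peaks and bases lying under peaks. Between 1305200 and 1414862 peaks were listed per library. They hold no expression values, so neither the cell type nor the loss of Hdac7 could be checked against marker genes. Nothing in the labels says that replicates came from separate animals, and the spread between them may be technical.

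HDAC7-deficient replicate 2 stood apart. Its peaks were denser on chromosomes 14 to 19 (560 per Mb) than on chromosomes 1 to 13 (510 per Mb), whereas each of the other 3 libraries was slightly less dense on the former. Of its chromosome 15, which holds Hoxc, 12.2% lay under peaks, against 9.49% and 10.998% in wild-type and 9.26% in HDAC7-deficient replicate 1. Hoxa, Hoxb and Hoxd are on chromosomes where this library was not denser than wild-type replicate 2. The main ratios of peak bases are given with and without it.

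Hox genes encode homeodomain transcription factors that set position along the body axis. They stand in a row within each cluster, numbered by paralog group, and their order follows where and when they are switched on in the embryo. In blood, several Hoxa and Hoxb genes are active in stem and early progenitor cells and are turned down as cells mature, and their persistence is a hallmark of leukaemias with KMT2A rearrangements. The silent clusters are classic targets of Polycomb repression. They are rich in CpG, the dinucleotide at which methylcytosine occurs and from which TET enzymes make 5-hmC. In the 4 cores CpG occurred 2.09 to 2.99 times per 100 bases, against 0.851 over the autosomes, and 13.4% to 24.6% of bases were masked as repeats, against 33.5%.

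Sequences that carried the signal in every library are shown first. In the Hoxa, Hoxc and Hoxd cores the longest run of bases that lay under a peak in all 4 libraries, at most 300 bases long and outside annotated untranslated regions, was read from GRCm38 on the plus strand. CpG dinucleotides are in capitals. The Hoxa run lies in Hoxa10 (chr6:52238189-52238356), the Hoxc run in the long noncoding RNA gene Hotair (chr15:102947175-102947470) and the Hoxd run in Hoxd3os1 (chr2:74704085-74704293), just upstream of Hoxd8.
Hoxa, all 4 libraries: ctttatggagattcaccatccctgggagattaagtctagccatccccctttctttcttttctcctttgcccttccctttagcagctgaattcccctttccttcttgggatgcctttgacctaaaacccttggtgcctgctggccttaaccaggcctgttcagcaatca
Hoxc, all 4 libraries: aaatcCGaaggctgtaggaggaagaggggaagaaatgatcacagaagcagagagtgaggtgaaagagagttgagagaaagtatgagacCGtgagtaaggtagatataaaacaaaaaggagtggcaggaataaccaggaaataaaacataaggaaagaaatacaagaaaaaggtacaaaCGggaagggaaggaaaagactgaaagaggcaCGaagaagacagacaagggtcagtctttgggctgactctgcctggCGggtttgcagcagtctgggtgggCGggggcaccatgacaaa
Hoxd, all 4 libraries: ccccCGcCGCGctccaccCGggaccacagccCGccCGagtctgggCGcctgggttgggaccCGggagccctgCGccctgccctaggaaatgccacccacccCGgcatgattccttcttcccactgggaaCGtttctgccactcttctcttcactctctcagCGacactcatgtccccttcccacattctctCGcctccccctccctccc
These 3 runs differed widely in composition. The Hoxa run held 0 CpG, the Hoxc run 6 and the Hoxd run 13. Bases under peaks of all 4 libraries made up 1.195% of the Hoxa cluster, 1.68% of Hoxb, 1.93% of Hoxc and 1.24% of Hoxd.

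Promoter sequence was available from RefSeq (GRCm38) for 24 promoters of 22 Hox genes, each running from 250 bases before to 50 after a transcription start. Of these 24, only that of Hoxb4, a factor that promotes self-renewal of blood stem cells, had a peak in all 4 libraries. This share (4.17%) was near that of autosomal promoters (5.47% of 31396). The part of the Hoxb4 promoter before the start (chr11:96318017-96318266, plus strand) is shown as the 1 with peaks in all 4 libraries.
Hoxb4 upstream: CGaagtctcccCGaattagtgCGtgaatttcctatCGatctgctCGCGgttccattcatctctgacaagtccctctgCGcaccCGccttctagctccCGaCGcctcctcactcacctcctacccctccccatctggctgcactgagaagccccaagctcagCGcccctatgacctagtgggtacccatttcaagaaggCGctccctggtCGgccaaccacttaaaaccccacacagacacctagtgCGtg
It holds 14 CpG. Of the 300 bases of this promoter, wild-type peaks covered 238 in replicate 1 and 170 in replicate 2, and HDAC7-deficient peaks covered 92 and 236, so the genotypes overlapped. At the other extreme 13 of the 24 promoters (54.2%) had no peak in any library, against 50.6% of 31396 autosomal promoters. Among these 13 were the CpG-dense promoters of Hoxa13 with 45 CpG, Hoxa5 with 29 and Hoxd1 with 29. The median Hox promoter held 14.5 CpG and the median autosomal promoter 7.

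Over the 39 gene windows together, which cover 379705 bases, wild-type libraries had 267 and 247 peaks, against 288 and 225 in the HDAC7-deficient ones (replicates 1 and 2, the order used throughout). The HDAC7-deficient mean was 0.998 ± 0.182 times the wild-type mean (SD from the replicates, n = 2 against 2; exact permutation p = 1.0). Peak bases were 43434 and 48563 in wild-type against 44434 and 35038 in HDAC7-deficient libraries, a ratio of 0.864 ± 0.160 (exact permutation p = 0.667). With 2 libraries per genotype this two-sided test cannot give a p below 0.333. The genotypes overlapped in both measures, and HDAC7-deficient replicate 2 alone lay below the other 3. Without it the ratio of peak bases was 0.966.

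Peaks covered a median of 10.5% and 12.5% of a Hox window in wild-type against 10.6% and 7.61% in HDAC7-deficient replicates 1 and 2. The medians over all coding genes were 9.07%, 10.5%, 8.94% and 10.02%. Thus Hox windows were covered more than the median gene in 3 libraries and less in HDAC7-deficient replicate 2. That library had the fewest peak bases of the 4 in 20 of 39 Hox windows (51.3%), against 21.9% of all coding genes. Every one of the 4 libraries had a peak in 36 of the 39 windows (92.3%, against 94.0% of all coding genes). The exceptions were Hoxd1 in wild-type replicate 2 and Hoxa6 and Hoxd12 in HDAC7-deficient replicate 2, and no Hox gene lacked peaks throughout. Windows of neighbours overlap, and the annotated bodies of Hoxa3, Hoxc5 and Hoxd3 span other Hox genes, so that members share peaks.

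**Figure D1:**
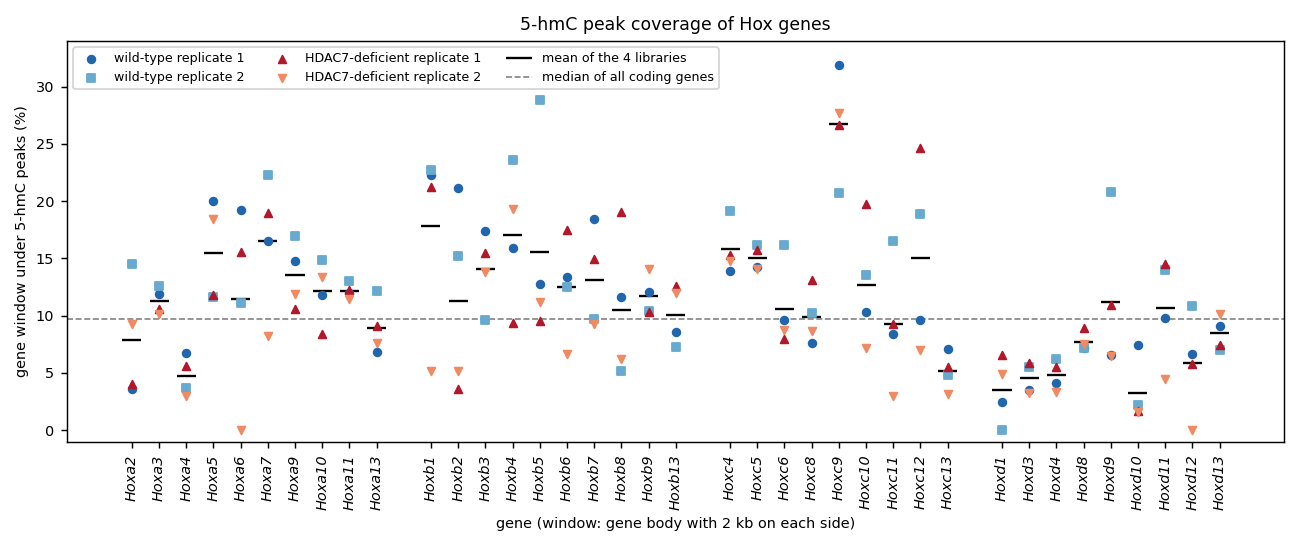
Share of each Hox gene window under 5-hmC peaks (vertical axis, percent), with 1 point per library, a bar at the mean of the 4 libraries and a dashed line at the median of all coding genes. Not every Hoxa gene is shown. Hoxc9 stands highest at 26.7%, all 10 Hoxb genes have means above the dashed line, and 7 of 9 Hoxd genes lie below it.

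The clusters differed in level. By the mean of the 4 libraries all 10 Hoxb genes lay above the median coding gene, as did 7 of 11 Hoxa and 7 of 9 Hoxc genes but only 2 of 9 Hoxd genes, Hoxd9 and Hoxd11. Hoxc9, a trunk-patterning gene, had the highest covered share of all Hox windows. Peaks covered 31.9% and 20.7% of it in wild-type against 26.7% and 27.7% in HDAC7-deficient libraries, which placed it above 99.7% of coding genes. The median window was 7488 bases for Hox genes and 21425 for all coding genes, and ranks and background shares were not matched for length. The least covered Hox window was that of Hoxd10, a limb-patterning gene, with a mean of 3.23% ± 2.83 (SD over 4 libraries). By paralog group the highest mean share was that of group 9 (16.9% ± 1.11, 4 genes), through Hoxc9 at 26.7%, since Hoxa9, Hoxb9 and Hoxd9 stood at 13.5%, 11.7% and 11.2%. The lowest was that of group 13, the most posterior genes (7.74% ± 0.362, 4 genes). In group 13 the 4 libraries ranged from 7.39% to 8.22%, and in group 9 from 15.6% to 18.2%. Both groups were picked by these same values, so their lack of overlap is no support for a difference. The group-13 range pools genes that differed, since Hoxb13 was higher in both HDAC7-deficient libraries while Hoxa13, Hoxc13 and Hoxd13 overlapped.

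Within Hoxa the most covered window was that of Hoxa7, with 16.5% and 22.3% in wild-type against 18.999% and 8.21% in HDAC7-deficient libraries. The least covered was that of Hoxa4, with 6.76% and 3.72% in wild-type against 5.64% and 2.96% in HDAC7-deficient libraries. In both genes HDAC7-deficient replicate 2 was lowest and the genotypes overlapped. Hoxb1, a hindbrain gene, was the most covered of its cluster, with 22.3% and 22.7% in wild-type against 21.2% and 5.20% in HDAC7-deficient libraries. Hoxb13 was the least covered, with 8.58% and 7.22% in wild-type against 12.6% and 11.99% in HDAC7-deficient libraries. Hoxb1 was thus lower and Hoxb13 higher in both HDAC7-deficient libraries, although for Hoxb1 replicate 1 differed little from wild-type and the genotypes overlapped once divided by the library's coverage of chromosome 11. In Hoxc the extremes were Hoxc9 and Hoxc13, and peaks covered 7.13% and 4.80% of Hoxc13 in wild-type against 5.47% and 3.18% in HDAC7-deficient libraries. In Hoxd they were Hoxd9 and Hoxd10, and Hoxd9 ran from 6.60% and 20.8% in wild-type to 10.9% and 6.51% in HDAC7-deficient libraries. The genotypes overlapped in Hoxc13 and Hoxd9, and the pair of wild-type values of Hoxd9 was further apart than its genotype means.

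Of 8 Hox genes listed for their known roles in blood progenitors, lymphocytes or leukaemia, Hoxa9 was the one whose genotypes did not overlap. By the same rule 10.3% of all coding genes were higher and 17.1% lower in peak bases, and 5.59% were lower in both measures. Hoxa9, which drives self-renewal of progenitors and is a central target of KMT2A fusion proteins, had 12 peaks in either wild-type library, against 8 and 10 in the HDAC7-deficient ones. Its peak bases were 1771 and 2030 in wild-type against 1265 and 1427 in HDAC7-deficient libraries, a ratio of 0.708 ± 0.0911 (n = 2 against 2; exact permutation p = 0.333, the smallest possible). Both HDAC7-deficient values lay below both wild-type values in either measure. The order of the genotypes in peak bases was the same for the gene body alone (1365 and 1792 against 790 and 829), with 10 kb on each side (3894 and 5579 against 3315 and 3089) and for peaks at least 200 bp wide (913 and 1641 against 660 and 621). These settings draw on the same peaks and are not independent.

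The other 7 genes of this list overlapped between genotypes in both measures. Hoxa5, a regulator of erythroid and lung development, had 1366 and 794 peak bases in wild-type against 806 and 1261 in HDAC7-deficient libraries. Hoxa7, a partner target of KMT2A in leukaemia, had 1880 and 2534 in wild-type against 2159 and 933 in HDAC7-deficient libraries. Hoxa10, active in myeloid progenitors, had 1613 and 2035 in wild-type against 1152 and 1825 in HDAC7-deficient libraries. With 10 kb on each side, where windows of these neighbours overlap widely, all 3 were lower in both HDAC7-deficient libraries, as Hoxa9 was. The values were then 3191 and 2907 against 2696 and 2362 for Hoxa5, 4496 and 4830 against 4168 and 2323 for Hoxa7, and 3630 and 5252 against 3134 and 3043 for Hoxa10, which was also lower with peaks at least 200 bp wide. With 10 kb on each side 12 of 39 Hox genes (30.8%) were lower, beside 17.5% of all coding genes. Hoxb3 had 4985 and 2741 in wild-type against 4415 and 3953 in HDAC7-deficient libraries, and its neighbour Hoxb4 had 1173 and 1738 against 687 and 1421. Hoxb6 had 1749 and 1641 in wild-type against 2283 and 868 in HDAC7-deficient libraries, so that the latter lay on either side of wild-type. Hoxc4, which is expressed in lymphocytes and takes part in antibody class switching, had 3055 and 4196 in wild-type against 3358 and 3228 in HDAC7-deficient libraries.

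Counted over all 39 windows, peak bases were higher in both HDAC7-deficient libraries in 3 genes (Hoxb13, Hoxd1 and Hoxd8) and lower in both in 9 (among them Hoxa9, Hoxb1, Hoxb2, Hoxb5, Hoxc6, Hoxd10 and Hoxd12). Of all coding genes 10.3% were higher and 17.1% lower in this sense, against 7.69% and 23.1% of Hox genes, shares near that background in this setting. The share of lower Hox genes stood further above the background in some others. It was 30.8% against 15.2% for peaks at least 200 bp wide, and 28.2% against 15.9% for gene bodies alone. With 10 kb on each side it was 30.8% against 17.5%. Divided by the library's value on the same chromosome it was 17.9% against 16.7%. Without HDAC7-deficient replicate 2, 12 Hox genes were lower (30.8%, against 40.2% of all genes) and 10 higher (25.6%, against 18.7%), and without HDAC7-deficient replicate 1, 24 were lower (61.5%, against 29.7%) and 5 higher (12.8%, against 33.7%). Which side of the background the Hox genes fell on therefore turned with the HDAC7-deficient library used. By number of peaks only Hoxd4 was higher (11.4% of all coding genes) and only Hoxa9 and Hoxd10 were lower (10.6%). In both measures together 2 Hox genes were lower, Hoxa9 and Hoxd10 (5.59% of all coding genes), and 0 were higher (4.06%). The median ratio of peak bases over the Hox genes was 0.850, and over 21282 coding genes with a ratio 0.964.

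Hoxd10 had 3 and 4 peaks in wild-type against 2 and 1 in HDAC7-deficient libraries, with 535 and 161 peak bases against 118 and 113. Almost the whole of this difference lay in wild-type replicate 1, and with 10 kb on each side, or with peaks at least 200 bp wide, the genotypes overlapped. Among genes named after their values were seen, Hoxb2, an anterior gene active in the hindbrain, had the lowest ratio of the 39. It had 1586 and 1141 peak bases in wild-type against 267 and 389 in HDAC7-deficient libraries, a ratio of 0.241 ± 0.0842 (exact permutation p = 0.333). Its peak counts were 9 and 4 in wild-type against 5 and 4 in HDAC7-deficient libraries and overlapped, as did its peak bases with 10 kb on each side (4195 and 2761 against 2361 and 2806). Hoxb13 had 612 and 515 peak bases in wild-type against 898 and 855 in HDAC7-deficient libraries, a ratio of 1.56 ± 0.197, but with 10 kb on each side the values (1795 and 2571 against 2084 and 2167) overlapped. Hoxd8 was higher by as little as 26 bases, it overlapped once divided by the library's coverage of chromosome 2, and with peaks at least 200 bp wide it was lower in both HDAC7-deficient libraries.

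Whole clusters were compared next. The 4 intervals cover 891815 bases and held 548 and 560 peaks in wild-type against 617 and 498 in HDAC7-deficient libraries, a ratio of 1.01 ± 0.153 (exact permutation p = 1.0). Their peak bases were 91922 and 104346 in wild-type against 94864 and 85785 in HDAC7-deficient libraries, a ratio of 0.920 ± 0.105 (exact permutation p = 0.667), or 0.967 without HDAC7-deficient replicate 2. Peak bases of the cores were 53994 and 64620 against 55749 and 45274 (ratio 0.852 ± 0.165), and those of the flanks were 37928 and 39726 against 39115 and 40511 (ratio 1.03 ± 0.0421). Without HDAC7-deficient replicate 2 these ratios were 0.940 and 1.01. In neither did the genotypes separate, nor in the covered share of cores over that of flanks (genotype ratio 0.834 ± 0.163; exact permutation p = 0.667).

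**Figure D2:**
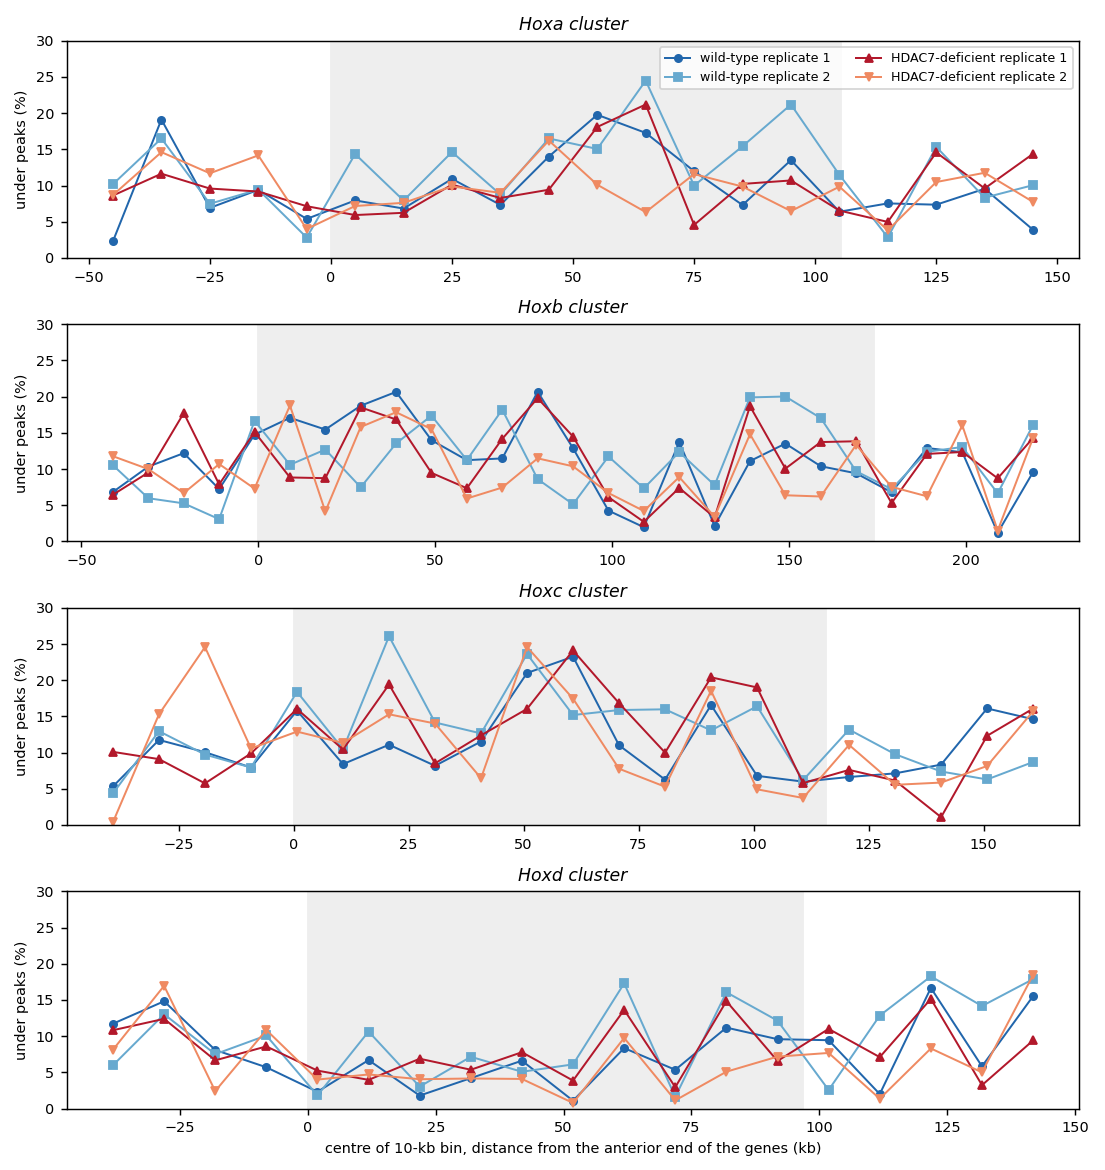
Share of consecutive 10-kb bins under 5-hmC peaks (vertical axis, percent) along each cluster, with 1 line per library. The horizontal axis is the distance in kb of the bin centre from the anterior end of the genes, the end with the lowest paralog numbers, and grey marks the core. The Hoxc lines reach their highest mean, 21.3%, at the bin with Hoxc8 and Hoxc9, and the Hoxd core stays low near Hoxd1, Hoxd3 and Hoxd4.

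Hoxa was the cluster in which the genotypes did not overlap. With genotype labels assigned at random, full separation in either direction has a probability of 0.333. No background share was computed for intervals of this size. The same limits hold for the cores and flanks said below not to overlap or to be higher or lower, which were among many intervals compared. Separation of an interval is therefore by itself no support for a difference. It held 20254 and 25454 peak bases in wild-type against 20150 and 19459 in HDAC7-deficient libraries, a ratio of 0.867 ± 0.141 (exact permutation p = 0.333), or 0.882 without HDAC7-deficient replicate 2. Wild-type replicate 1 was barely above HDAC7-deficient replicate 1, and once peaks within 100 bp were merged the genotypes overlapped (exact permutation p = 0.667). They overlapped too when the cluster was divided by the covered share of chromosome 6 (1.07 and 1.16 against 1.07 and 0.931). In its core the values were 11983 and 15422 in wild-type against 10845 and 9944 in HDAC7-deficient libraries, a ratio of 0.759 ± 0.142 (exact permutation p = 0.333), or 0.791 without HDAC7-deficient replicate 2. Divided by the covered share of chromosome 6, the Hoxa core stood at 1.23 and 1.37 in wild-type against 1.12 and 0.927 in HDAC7-deficient libraries, without overlap. Relative to its own flanks it stood at 1.38 and 1.46 against 1.11 and 0.993.

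The Hoxb core, which held 21838 and 22314 peak bases in wild-type against 20316 and 17324 in HDAC7-deficient libraries (ratio 0.853 ± 0.0967; exact permutation p = 0.333), did not overlap between genotypes either. Without HDAC7-deficient replicate 2 this ratio was 0.920. Relative to its flanks it stood at 1.39 and 1.46 in wild-type against 1.02 and 0.999 in HDAC7-deficient libraries, a ratio of 0.709 ± 0.0259. Relative to the covered share of chromosome 11, however, the genotypes overlapped (1.25 and 1.13 against 1.17 and 0.945). In the 50 kb beyond Hoxb1 the order was the opposite, with 4733 and 3256 peak bases in wild-type against 6137 and 5406 in HDAC7-deficient libraries, so that the ratio of core to flanks combined a lower core with a higher flank. Over the whole Hoxb interval the values were 30852 and 31111 against 31732 and 27291 and overlapped, with a ratio of 1.02 without HDAC7-deficient replicate 2.

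In Hoxc and Hoxd the genotypes overlapped in the core and in the whole interval. Hoxc held 24284 and 28036 peak bases in wild-type against 26267 and 25427 in HDAC7-deficient libraries (ratio 0.988 ± 0.103; exact permutation p = 1.0), or a ratio of 1.004 without HDAC7-deficient replicate 2. Its core stood at 1.32 and 1.48 times the covered share of chromosome 15 in wild-type against 1.63 and 0.957 times in HDAC7-deficient libraries, the last being the library in which that chromosome was denser. Hoxd held 16532 and 19745 in wild-type against 16715 and 13608 in HDAC7-deficient libraries (ratio 0.836 ± 0.160; exact permutation p = 0.667), or a ratio of 0.922 without HDAC7-deficient replicate 2. Its core was the 1 core below its chromosome in every library, at 0.638 and 0.784 in wild-type against 0.801 and 0.460 in HDAC7-deficient libraries (mean 0.671 ± 0.158, n = 4; exact two-sided sign-flip permutation p = 0.125, the smallest that 4 libraries allow). The Hoxd flanks, by contrast, were lower in both HDAC7-deficient libraries. On the Hoxd1 side they held 5871 and 5101 peak bases against 5055 and 5037, and on the Hoxd13 side 4946 and 6570 against 4589 and 4080. The Hoxd core was also less covered than its own flanks in every library, at 0.546, 0.714, 0.757 and 0.509.

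**Figure D3:**
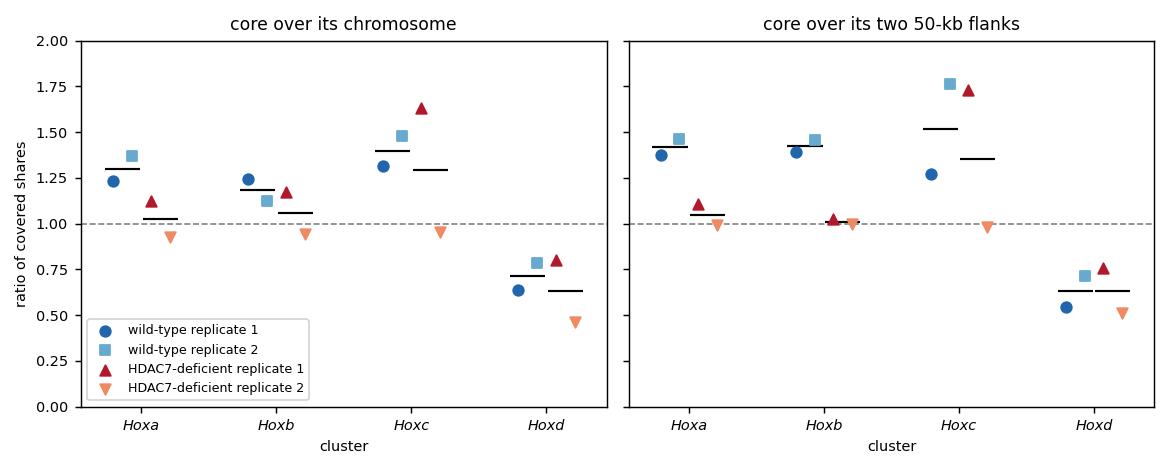
Covered share of each cluster core over that of its chromosome (left) and over that of its own flanks (right), with 1 point per library and bars at the genotype means. A value of 1 (dashed) means equal coverage. The Hoxd core is below 1 in all 4 libraries, and Hoxa and Hoxb points of the genotypes do not overlap in the right panel.

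Taken over all clusters, the covered share was 1.08 and 1.07 times that of the same chromosomes in wild-type against 1.13 and 0.894 times in HDAC7-deficient libraries (mean 1.04 ± 0.102, n = 4; exact sign-flip permutation p = 0.5). The cores were covered 1.16, 1.32, 1.16 and 0.909 times as much as the flanks in the same order (mean 1.14 ± 0.171; exact sign-flip permutation p = 0.25). In both ratios 3 libraries lay above 1 and HDAC7-deficient replicate 2 below. Without it the mean ratio of clusters to chromosomes was 1.09 and that of cores to flanks 1.21.

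Around the annotated starts of the 39 Hox genes, the covered share had its highest mean 1 to 1.5 kb inside the gene. There it was 18.3% and 17.1% in wild-type against 16.8% and 11.3% in HDAC7-deficient libraries. Between 1.5 and 1 kb before the start it was 8.44% and 10.02% in wild-type against 5.98% and 5.54% in HDAC7-deficient libraries. In each library the former exceeded the latter, and over all coding genes the means at these positions were 10.7% and 10.6%. Both positions were picked from these same values, so the agreement of the libraries adds no support. In the last 500 bases before the start the share was 14.6% and 12.2% in wild-type against 15.2% and 9.94% in HDAC7-deficient libraries. Coverage was thus not low throughout the stretch before the start. Neighbouring Hox genes lie close together, so that the same bases can enter upstream of one start and downstream of another.

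**Figure D4:**
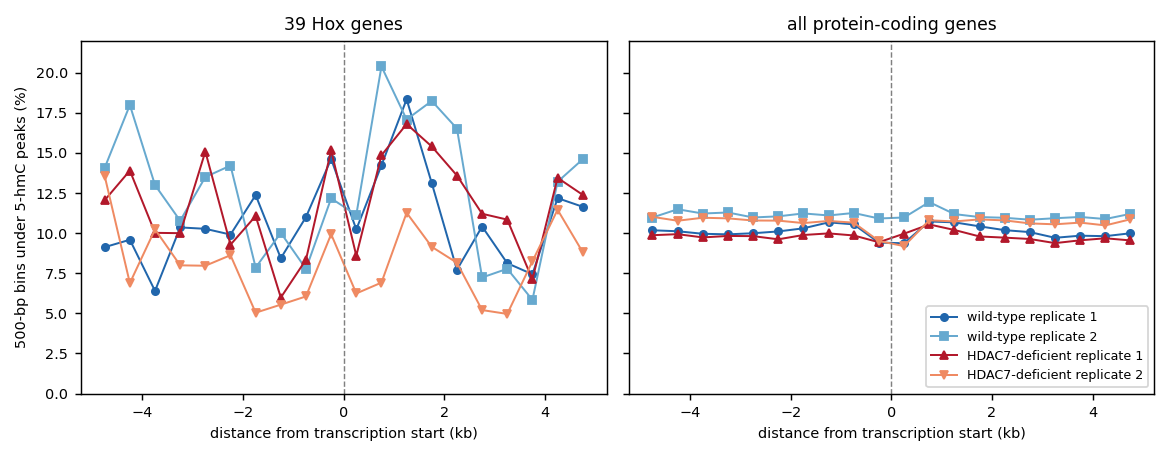
Share of 500-bp bins under 5-hmC peaks (vertical axis, percent) against distance from the annotated gene start (kb, positive into the gene) for the 39 Hox genes (left) and all coding genes (right), with 1 line per library. The mean of the Hox lines is highest 0.5 to 2 kb inside the gene, and HDAC7-deficient replicate 2 lies below the other 3 there.

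Coverage was then set against CpG content, in 500-bp tiles. Tiles were called CpG-rich at a GC content of at least 50% and an observed over expected CpG of at least 0.6, and they made up 8.04% of the tiles in the clusters (143 tiles) and 0.744% of autosomal tiles. Peaks covered 10.8% and 13.3% of the CpG-rich Hox tiles in wild-type against 10.2% and 8.26% in HDAC7-deficient libraries. For CpG-rich tiles of all autosomes the shares were 8.17%, 9.96%, 8.89% and 7.58%. CpG-rich tiles of the clusters were thus more covered than those of the genome in all 4 libraries, by 1.32 and 1.33 times in wild-type against 1.15 and 1.09 times in HDAC7-deficient libraries (mean 1.22 ± 0.122, n = 4; exact sign-flip permutation p = 0.125, the smallest possible). The genotypes did not overlap in this ratio, the HDAC7-deficient mean being 0.844 ± 0.0319 times that of wild-type (n = 2 against 2; exact permutation p = 0.333, the smallest possible). With peaks under 200 bp left out, HDAC7-deficient replicate 2 turned to 0.729 times the genome's CpG-rich tiles, while the other 3 libraries stayed above the genome and the genotypes still did not overlap. In tiles with 15 to 24 CpG the covered shares in the clusters were 13.4% and 15.5% in wild-type against 13.2% and 10.3% in HDAC7-deficient libraries, against 9.38%, 11.1%, 9.07% and 9.82% over the autosomes. The ratio of clusters to autosomes in these tiles was 1.42 and 1.40 in wild-type against 1.46 and 1.05 in HDAC7-deficient libraries, so the genotypes overlapped here (exact permutation p = 1.0), with HDAC7-deficient replicate 1 the highest. Of the CpG classes this one had the highest mean share in the clusters, and not every class showed an excess. With 6 to 9 CpG the clusters lay below the autosomes in all 4 libraries. They stood at 9.23%, 10.6%, 8.88% and 9.08%, against 9.81%, 11.1%, 9.59% and 10.5%. With 10 to 14 CpG only HDAC7-deficient replicate 1 lay above (11.3% against 10.2%). With at least 25 CpG all 4 libraries lay above, so the excess did not rise steadily with CpG count. HDAC7-deficient replicate 2 also had the lowest ratio of CpG-rich to other tiles over the autosomes, at 0.712 against 0.867, 0.925 and 0.956 in the other libraries. The part of this in its low Hox coverage was not tested directly, and against autosomal tiles of the same CpG count, a comparison added after seeing the data, the clusters stood at 1.097 and 1.09 in wild-type against 1.15 and 0.936 in HDAC7-deficient libraries.

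**Figure D5:**
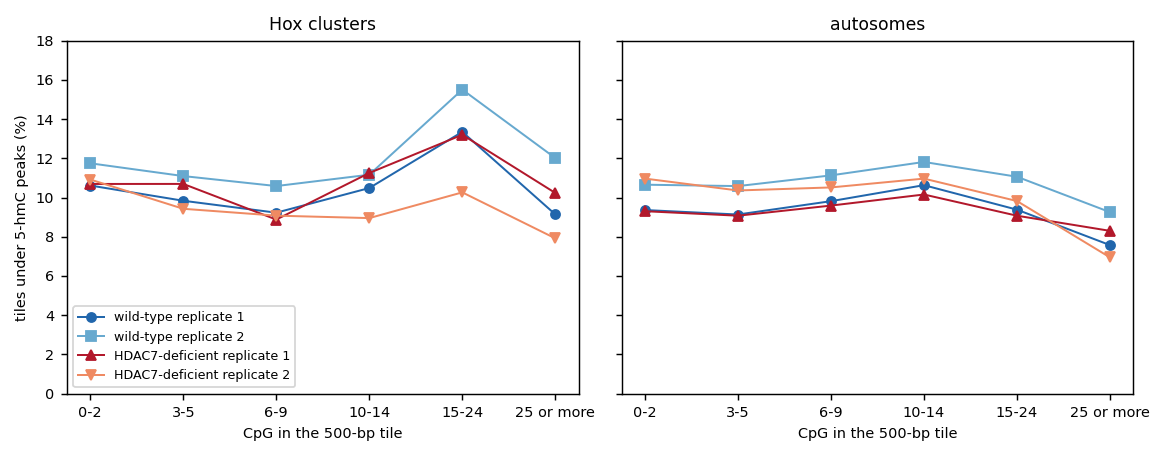
Share of 500-bp tiles under 5-hmC peaks (vertical axis, percent) by number of CpG in the tile, in the Hox clusters (left) and over all autosomes (right), with 1 line per library. The Hox lines peak at 15 to 24 CpG in 3 libraries, reaching 15.5% in wild-type replicate 2, while HDAC7-deficient replicate 2 stays between 7.92% and 10.9%.

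Overlapping peaks of the 4 libraries were joined into regions, of which the clusters held 1064. Of these 134 (12.6%) had a peak in all 4 libraries, the same share as over the autosomes (12.6%), and 576 (54.1%) had a peak in 1 library alone. Gained regions, with a peak in both HDAC7-deficient libraries and in neither wild-type one, numbered 21 (1.97%, against 2.91% over the autosomes). Lost regions, the reverse, numbered 22 (2.07%, against 2.43%). Both shares were below the background, the lost share closer to it than the gained share. The Jaccard index of peak bases in the clusters was 0.246 for the wild-type pair and 0.242 for the HDAC7-deficient pair, but 0.338 between wild-type and HDAC7-deficient replicates 1, so the pair most alike was of different genotypes. Over the autosomes these pairs stood at 0.230, 0.265 and 0.335, so this was not particular to the clusters.

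Among the widest regions with a peak in all 4 libraries were those at Hoxb4 (chr11:96320330-96321365, 1036 bp), over an untranslated region, and Hoxa5 (chr6:52202729-52203725, 997 bp), over coding exon sequence with 35 CpG. The 2 widest gained regions lay outside genes in the flanks, at chr15:103044429-103044900 (472 bp) and chr15:102874847-102875301 (455 bp) on either side of Hoxc. The widest lost regions lay in an intron of Hoxc5 (chr15:102973972-102974506, 535 bp), in an exon of Hoxa11os, the antisense transcript of Hoxa11 (chr6:52246273-52246750, 478 bp), and outside genes beyond Hoxa13 (chr6:52306098-52306572, 475 bp). Of the lost regions 16 of 22 touched a core, and of the gained regions 9 of 21, beside 621 of all 1064 cluster regions.

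CpG content was then compared between lost and gained regions, with no test. Pooled, lost regions held 2.62 CpG per 100 bases in the clusters and 0.954 over the autosomes, gained regions 0.967 and 0.839, and regions of all 4 libraries 1.47 and 0.842. The median region of the clusters held less, 1.38 when lost, 0.518 when gained and 1.002 in all 4 libraries. Of the lost regions 7 of 22 (31.8%) had at least 2 CpG per 100 bases, and of the gained regions 3 of 21 (14.3%), against 12.5% and 10.3% over the autosomes. Cluster regions with peaks in both libraries of equal replicate number and in no other reached this density in 26.6% (number 1) and 32.4% (number 2). Pooled, these held 1.64 and 1.52 CpG per 100 bases. Cores are more CpG-dense than flanks, and more of the lost regions touched a core. The bases under both peaks of a genotype are shown for 3 regions of each kind (plus strand, CpG in capitals). They are the widest that touched a core and whose shared bases lay outside untranslated regions. The lost runs lie at chr6:52246433-52246725 in Hoxa11os, chr11:96348729-96348825 in an intron of Hoxb3os and chr15:102974358-102974402 in an intron of Hoxc5. The gained runs lie at chr11:96337488-96337599 in an intron of Hoxb3, chr6:52256382-52256477 in 9530018H14Rik near Hoxa13 and chr15:102939019-102939132 outside genes, near Hoxc12.
Lost, Hoxa: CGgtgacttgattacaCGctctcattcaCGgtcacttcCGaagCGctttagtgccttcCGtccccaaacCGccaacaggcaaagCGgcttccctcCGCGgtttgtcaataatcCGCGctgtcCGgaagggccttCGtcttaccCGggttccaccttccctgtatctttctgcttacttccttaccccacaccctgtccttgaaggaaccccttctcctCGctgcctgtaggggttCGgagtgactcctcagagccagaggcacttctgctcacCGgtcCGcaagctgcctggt
Lost, Hoxb: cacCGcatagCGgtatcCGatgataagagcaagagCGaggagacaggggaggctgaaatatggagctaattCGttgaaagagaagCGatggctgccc
Lost, Hoxc: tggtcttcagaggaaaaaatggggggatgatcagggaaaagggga
Gained, Hoxb: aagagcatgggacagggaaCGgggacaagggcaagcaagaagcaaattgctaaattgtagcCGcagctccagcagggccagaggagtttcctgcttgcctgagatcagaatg
Gained, Hoxa: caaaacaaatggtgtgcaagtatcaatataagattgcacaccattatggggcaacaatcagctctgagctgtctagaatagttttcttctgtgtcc
Gained, Hoxc: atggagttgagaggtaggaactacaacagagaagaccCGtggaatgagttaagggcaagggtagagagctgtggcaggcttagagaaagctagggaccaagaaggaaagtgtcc
The lost runs hold 19, 6 and 0 CpG and the gained runs 2, 0 and 1, in the order shown.

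The clusters also carry miRNA genes whose products target Hox transcripts. Several lie inside annotated Hox gene bodies, Mir196b in Hoxa9, Mir10b in Hoxd3 and Hoxd4, and Mir196a-2 and Mir615 in Hoxc5. Their values therefore share peaks with Hox windows, as do those of Mir10a with Hoxb4. Of 7 annotated miRNA genes 6 matched a RefSeq entry. Mature sequences are shown with the seed, bases 2 to 8, in capitals.
miR-10a-5p: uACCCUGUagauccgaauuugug
miR-10b-5p: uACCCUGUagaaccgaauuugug
miR-196a-5p: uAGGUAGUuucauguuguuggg
miR-196b-5p: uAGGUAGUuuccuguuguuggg
miR-615-3p: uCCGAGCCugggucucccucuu
miR-10a and miR-10b share their seed, as do miR-196a and miR-196b, the last pair encoded by Mir196a-1 in Hoxb, Mir196a-2 in Hoxc and Mir196b in Hoxa. Within 2 kb of Mir10a, which lies beside Hoxb4, 649 and 702 bases were under peaks in wild-type against 369 and 580 in HDAC7-deficient libraries. Near Mir10b, inside the annotated bodies of Hoxd3 and Hoxd4, the values were 58 and 0 in wild-type against 139 and 0 in HDAC7-deficient libraries. Mir10a was the 1 miRNA gene of the 7 whose genotypes did not overlap in peak bases (lower; 17.1% of coding genes were lower by the same rule), and by number of peaks 0 of 7 separated. Near Mir196b there were 506 and 370 bases in wild-type against 240 and 445 in HDAC7-deficient libraries, and near Mir196a-1 144 and 425 against 329 and 201. Near Mir196a-2 there were 249 and 1223 in wild-type against 577 and 414 in HDAC7-deficient libraries, and near Mir615 139 and 948 against 771 and 539. For Gm44463, the gene with no match, they were 355 and 962 against 738 and 422. In these 5 genes and Mir10b the genotypes overlapped.

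Of 22 long noncoding RNA genes in the cluster intervals, counted by the same window, peak bases were higher in both HDAC7-deficient libraries in 1 and lower in 7, beside 10.3% and 17.1% of all coding genes. By number of peaks 2 were higher and 2 lower, beside 11.4% and 10.6% of all coding genes. Many of them overlap Hox genes and share their peaks. The genes named next were chosen after their values were seen. Hoxaas3, an antisense transcript of the Hoxa cluster, had 5704 and 5957 peak bases in wild-type against 4591 and 4845 in HDAC7-deficient libraries. Hoxb3os had 2886 and 1756 against 1530 and 1542, and both were lower in both HDAC7-deficient libraries. Hotair, which is transcribed from Hoxc and has been linked to repression of Hoxd, had 1525 and 919 peak bases in wild-type against 1825 and 1517 in HDAC7-deficient libraries. Its bases overlapped, while its peaks, 6 and 4 against 8 and 7, were more numerous in both HDAC7-deficient libraries. Hottip, at the Hoxa13 end, had 501 and 714 against 490 and 791, and Haglr, at Hoxd1, 979 and 1228 against 971 and 1276, and both overlapped.

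Finally, 14 genes of Hox cofactors, neighbours and activators were examined. Peak bases were higher in both HDAC7-deficient libraries in 2 of 14 and lower in 3 of 14, beside 10.3% and 17.1% of all coding genes. Evx1, a homeobox gene beyond Hoxa13, had 6 peaks in either wild-type library against 7 and 8 in HDAC7-deficient libraries, with 992 and 993 bases against 1441 and 1482. It was thus higher in both measures, in the direction opposite to the Hoxa core. Meis3, a TALE cofactor of Hox proteins, had 2617 and 2452 bases in wild-type against 3012 and 3237 in HDAC7-deficient libraries, while its peaks (13 and 15 against 14 and 7) overlapped. Meis2, a TALE cofactor of the same family, had 17440 and 15124 in wild-type against 13005 and 12530 in HDAC7-deficient libraries. Dot1l, a histone H3 methyltransferase needed for Hoxa9 activation by KMT2A fusions, had 2853 and 3659 in wild-type against 2138 and 2362 in HDAC7-deficient libraries. Both were lower in number of peaks too. Kmt2a, which maintains Hox expression, had 11185 and 10028 bases in wild-type against 9393 and 9370 in HDAC7-deficient libraries, and its peaks (66 and 60 against 63 and 49) overlapped. Pknox2 was higher by number of peaks alone, with 148 and 146 in wild-type against 167 and 158 in HDAC7-deficient libraries. The other 8, among them the cofactor Meis1, overlapped in both measures.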

How the data were processed

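The deposited files were 4 peak lists, 1 per library, each row giving a chromosome, a start and an end and no score, so no read count was tested. Before deposit the authors used Cutadapt 1.6 through Trim Galore (version 0.4.2) for trimming and Picard for duplicates, scaled the signal to RPKM with deepTools and called peaks in each library with MACS2 bdgpeakcall (cutoff 250). The paper's methods name bwa as the aligner and the submitters' processing notes name Bowtie2. Peaks that met an input peak were removed, and whether before deposit is not stated. The submitters' notes name build mm10, the same assembly as GRCm38. The input samples were not analysed here.

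Peaks and bases were counted in Python 3.11.15 (pandas 2.3.3, NumPy 2.4.6), on code checked against brute-force counts on simulated lists, and figures drawn with matplotlib 3.10.9. Genes came from GENCODE M21, and chromosomes 1 to 19, X and Y were used. A peak is counted in an interval it overlaps by at least 1 bp. Ratios are of group means, with the SD propagated. Tests were two-sided exact permutations over the 6 ways to choose 2 of 4 libraries, or sign flips of log2 ratios over 4 libraries. The members, gene lists and tests were chosen with earlier results of these data known. Genes named were the 8 known from blood, the most and least covered of each cluster and those whose genotypes separated in peaks and bases, others being said to be chosen after their values were seen. Values of some genes and sequences are not reported here, although counts over all members include them.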

Additional observations from a re-analysis of the deposited data

How the results depend on the processing

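The 15 results were recomputed under 132 alternatives, of which 97 kept the direction of a ratio or stayed within 1.5 times a count, 14 reversed and 21 moved. No test here could reach 0.05, so direction alone was followed, and the cause of a change was not tested unless fewer libraries or bases entered. The 2 peak counts, with ratios close to 1, reversed most. For gene windows the ratio was 1.005 with the gene body alone and 1.01 with 10 kb on each side. For whole clusters it was 0.864 with peaks at least 200 bp wide, 0.968 with peaks within 100 bp merged, 0.990 relative to the same chromosome and 0.997 with no margin. The covered share of the clusters over their chromosomes was 0.994 with peaks at least 200 bp wide. Hox genes higher in both HDAC7-deficient libraries numbered 1 with the gene body alone, 1 with 10 kb on each side and 1 by peak count (10.3%, 9.21% and 11.4% of all coding genes), and those lower numbered 2 by peak count (10.6%). Gained regions numbered 9 with no margin. Lost regions numbered 38 when an overlap of at least 50% of the shorter peak was asked for.

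With each library left out in turn, the ratio of peak counts ran from 0.875 to 1.12 in gene windows and from 0.899 to 1.11 in clusters, and that of peak bases from 0.881 to 1.02 in Hoxb and from 0.922 to 1.06 in Hoxc. Both the highest peak-count ratios and that of Hoxb were reached without HDAC7-deficient replicate 2, and that of Hoxc without wild-type replicate 2. Higher genes then numbered 5 to 10 and lower genes 12 to 24, beside 18.7% to 33.7% and 27.4% to 44.8% of all coding genes. Gained regions numbered 50 to 188 (5.55% to 20.2% of regions, against 7.28% to 18.2% over the autosomes) and lost regions 54 to 185 (5.79% to 19.5%, against 5.84% to 22.7%). Fewer libraries make the rule easier to meet. With the replicate number as a block the ratio of peak bases was 0.859 in gene windows and 0.921 in clusters, and 8 of 8 blocked ratios kept their direction, with p from 0.5 to 1.0. The numbers were not taken to pair the libraries, since deviations of equally numbered libraries correlated at only r = 0.0112 over 21938 genes and r = 0.0176 over the Hox genes. However, autosomal regions held by both libraries of equal number alone (4.53% and 3.29%) were more frequent than gained (2.91%) or lost (2.43%) ones. On the mean of the libraries, the covered share of the CpG-rich Hox tiles stayed above that of the genome in all 7 alternatives tried, at 1.11 to 1.27 times.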
